A study of Mus musculus with 6 samples.

Results

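The genes described here are 40 genes of mitosis and the spindle, covering entry into mitosis, the spindle checkpoint, kinetochores, condensed chromosomes, spindle motors and cytokinesis. They were taken by symbol from a published table of mouse gene expression, and all 40 of the listed symbols had a row among its 12331 genes. The table holds RNA-seq libraries of E14tg2a, a long-established line of mouse embryonic stem cells grown in serum with LIF, the cytokine that keeps such cells undifferentiated. Each library began with 10 pg of purified total RNA, about what a single cell holds, that was primed by oligo(dT), tailed and amplified by 20 PCR cycles before a library was made. In 3 tagmentation libraries, 100 ng of the amplified cDNA was cut and tagged by hyperactive Tn5 transposase at 55 °C for 5 min, and in 3 sonication libraries the cDNA was sheared with ultrasound and joined to adaptors. All 6 libraries came from the same untreated line and carried replicate numbers 1 to 3 within each method. The labels call them technical replicates, so the p-values here speak of the spread among 6 libraries of 1 line, and no library here is RNA of 1 isolated cell. The comparison asks how the 2 ways of fragmenting cDNA of single-cell amount compare.

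Cells enter mitosis when the kinase CDK1, bound to a B-type cyclin, starts chromosome condensation and spindle assembly. The spindle checkpoint then holds CDC20 until every kinetochore is attached to microtubules, after which the anaphase-promoting complex with CDC20 marks its substrates for destruction and the sister chromatids part. Many of these genes are transcribed late in the cell cycle from promoters with CCAAT boxes, which bind NF-Y, and with a cell cycle homology region (CHR), which binds MuvB complexes. Embryonic stem cells divide fast, with short gap phases, and hold ample mitotic transcripts.

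The promoters of 4 of the genes are shown because they span the behaviour described here: Cks1b, whose level varied least between replicate numbers, Cdk1, the kinase that drives mitosis, Cdc20, which was lowest in number 1, and Nusap1, which varied most. The 250 bases before the start of each gene are from RefSeq on build GRCm38.p6, written 5′ to 3′ on the gene's own strand: Cks1b at chr3:89418292-89418541, minus strand; Cdk1 at chr10:69352913-69353162, minus strand; Cdc20 at chr4:118437344-118437593, minus strand; and Nusap1 at chr2:119618048-119618297, plus strand. Capitals mark CCAAT or its reverse complement ATTGG, and the CHR letters TTTGAA or TTTAAA (reverse complement TTCAAA for TTTGAA).
Cks1b: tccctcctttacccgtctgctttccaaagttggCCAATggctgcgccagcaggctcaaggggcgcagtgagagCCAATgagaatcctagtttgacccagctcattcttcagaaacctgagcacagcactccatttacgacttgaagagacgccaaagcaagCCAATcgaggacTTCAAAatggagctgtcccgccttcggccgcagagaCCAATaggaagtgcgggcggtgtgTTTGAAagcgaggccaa
Cdk1: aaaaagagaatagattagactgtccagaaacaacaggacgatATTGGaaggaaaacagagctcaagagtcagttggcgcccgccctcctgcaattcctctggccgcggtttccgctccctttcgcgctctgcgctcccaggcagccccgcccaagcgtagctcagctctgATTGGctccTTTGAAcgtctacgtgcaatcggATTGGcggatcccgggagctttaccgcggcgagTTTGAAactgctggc
Cdc20: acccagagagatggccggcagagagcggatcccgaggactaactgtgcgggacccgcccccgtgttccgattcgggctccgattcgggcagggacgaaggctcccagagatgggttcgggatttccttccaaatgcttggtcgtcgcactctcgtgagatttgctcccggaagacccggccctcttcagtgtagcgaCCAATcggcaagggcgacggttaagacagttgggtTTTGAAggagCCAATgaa
Nusap1: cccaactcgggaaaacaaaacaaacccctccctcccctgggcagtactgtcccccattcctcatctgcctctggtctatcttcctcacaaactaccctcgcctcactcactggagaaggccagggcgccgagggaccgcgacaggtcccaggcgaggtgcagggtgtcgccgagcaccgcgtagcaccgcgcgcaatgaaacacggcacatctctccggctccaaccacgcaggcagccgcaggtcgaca
The Cks1b stretch holds 4 CCAAT boxes and 2 copies of TTTGAA, the Cdk1 stretch 3 and 2, and the Cdc20 stretch 2 and 1. The last CHR match ends 11 bases before the start of Cks1b, 9 bases before that of Cdk1 and 12 bases before that of Cdc20. The Nusap1 stretch holds none of these letters. RefSeq promoters of 300 bases, reaching 50 bases past the start, were given for 33 of the 40 genes. On either strand, 26 of the 33 (78.8%) held CCAAT, 28 (84.8%) held TTTGAA or TTTAAA, and 24 (72.7%) held both, with a gene counted when any of its listed promoters held the letters. Of 8604 genes of the expression table with a promoter, 43.8% held CCAAT, 22.5% held TTTGAA or TTTAAA and 9.51% held both, and of all 27025 genes with a RefSeq promoter of this length the shares were 41.1%, 30.6% and 12.2%. Mad2l1, Nuf2 and Nusap1 were the 3 with neither. These are matches of letters and show no binding. The 4 promoters were picked with the levels known, and a link between these letters and the range between numbers was not tested.

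The tagmentation libraries had 21007424, 34612028 and 34681566 alignments and the sonication libraries 30296557, 22002643 and 18852822, in the order of the numbers. Values are RPKM, reads per kilobase of the gene model relative to a library's alignments, so levels are scaled for gene length and depth. Whether oligo(dT) priming and amplification acted alike on all genes was not tested, so ranks of genes by abundance are ranks of RPKM only. All 8 markers of pluripotent cells reached 1 RPKM in some library, with summed levels of 1728 to 2502 RPKM after tagmentation and 1384 to 2819 RPKM after sonication. Nanog was listed at 0 in number 3 of both methods. Of 8 fibroblast markers 5 had a row, while Postn, Lum and Dcn had none. Among the 5 only Thy1 reached 1 RPKM (summed levels 0.137 to 9.55 RPKM after tagmentation and 0.412 to 12.1 RPKM after sonication). Of 10 germ layer markers 6 had a row, while Gata4, Gata6, Sox17 and Hand1 had none. Among the 6, T, Eomes and Nes reached 1 RPKM. Their list summed to 91.0 RPKM after tagmentation and 66.7 RPKM after sonication in number 2, against at most 13.8 and 8.37 RPKM in the other numbers. T, a primitive streak gene, made up 83.2 RPKM of that sum after tagmentation and 61.3 RPKM after sonication. The part of these transcripts in the differences between numbers was not tested. In the level of a mitosis gene in this line, more cells in mitosis and more RNA per mitotic cell cannot be told apart, as the RNA is pooled. The labels call the replicate numbers technical replicates and name no difference in cells between them.

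Transcripts of all 40 genes were detected, and none was listed at 0 in any library. In number 1, all 40 stood at 1 RPKM or more by both methods. In numbers 2 and 3, 31 and 33 of them did after tagmentation, against 38 and 38 after sonication. The mean over the 3 numbers was 34.7 ± 4.73 genes after tagmentation and 38.7 ± 1.15 genes after sonication (SD, n = 3 each). Of the 6327 genes tested below, 86.0%, 85.1% and 79.7% stood at 1 RPKM or more after tagmentation and 87.0%, 90.1% and 86.85% after sonication. The summed level of the 40 genes was 2639, 2356 and 2304 RPKM after tagmentation and 2683, 1931 and 1557 RPKM after sonication. That sum was highest in number 1 by both methods. The median level of the tested genes was 13.3, 14.5 and 9.63 RPKM after tagmentation and 14.4, 12.3 and 7.54 RPKM after sonication. In the heat map of levels a part of the rows, among them Bub1 and Nusap1, is bright in number 1 and dark in numbers 2 and 3 by both methods. Other rows go otherwise: Plk1, Spc24 and Cdc20 are darkest in number 1 by both methods, and Cks1b stays bright throughout.

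**Figure D1:**
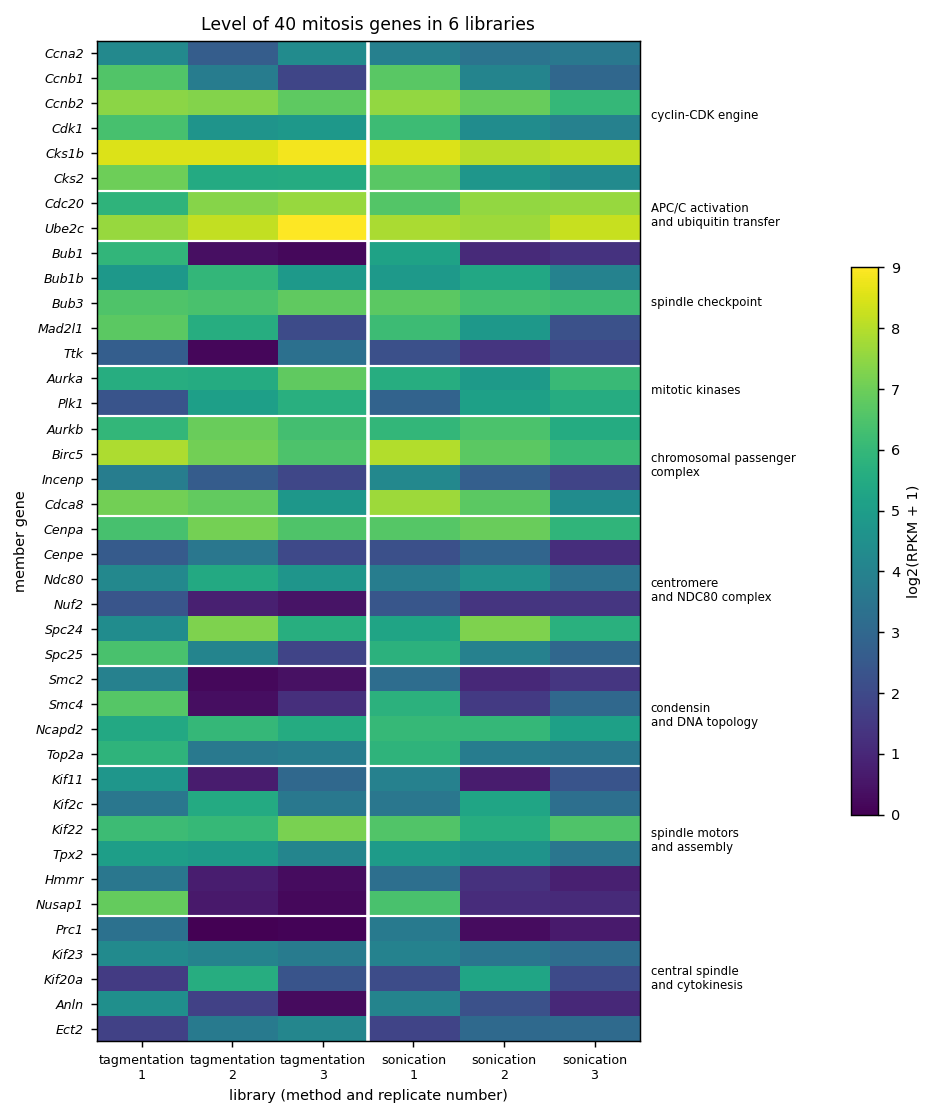
Level of the 40 mitosis genes (rows, ordered by role) in the 3 tagmentation and the 3 sonication libraries (columns), as colour on the log2(RPKM + 1) scale. Bub1, Smc2, Smc4, Nusap1 and Prc1 are near the dark end in number 2 and brighter in number 1 of both methods, Smc2 and Prc1 only moderately so. Cks1b, Ube2c and Bub3 stay bright in all 6 libraries.

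No gene was called between the methods when the replicate numbers were left out of the model. Genes were tested as log2(RPKM + 1) with limma when they reached 1 RPKM in at least 3 of the 6 libraries, which kept 6327 genes and 39 of the 40 mitosis genes; Prc1 did not pass. At a Benjamini-Hochberg adjusted p of 0.05, limma called 0 of the 39 mitosis genes and 0 of all 6327 (0%), and at an unadjusted p of 0.05 it called 0 of the 39 and 18 of 6327 (0.284%). With the replicate number as a block, limma called 208 genes, 3.29% of those tested, of which 100 were higher after tagmentation (1.58%) and 108 lower (1.71%). After a GC correction, or with no filter on low values, that fit called 0 genes. Of the mitosis genes the fit with the block called 0 in either direction. Its spread was nearly all shared across genes (209.7 of 211.7 degrees of freedom). Standard errors with the block were thus nearly alike, from 0.27 for Nuf2 to 0.30 for Ube2c. A standard error given below with the block is not that gene's own spread. Without the block, standard errors of the difference ran from 0.34 for Cks1b to 2.08 for Nusap1, so that a missed threshold does not show that the methods gave the same level. Nor did the 3 tagmentation and the 3 sonication values of any of the 39 stand fully apart, as they did for 2.4% of all tested genes (1.88% higher after tagmentation and 0.522% lower). The differences of the 39 genes (tagmentation minus sonication, log2 scale) ran from -0.72 for Smc4 to 0.87 for Ndc80, with a median of 0.18 and 24 of 39 above 0 (61.5%), against a median of 0.028 and 52.7% above 0 over all tested genes. The median of the mitosis genes was 0.025 with quantile normalization and 0.042 after the GC correction, against -0.018 and 0.0099 over all genes.

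The replicate number, by contrast, separated most of these genes. An F test in limma over the 3 numbers, with method as a term, called 32 of the 39 mitosis genes and 88.1% of all tested genes, so the count for the mitosis genes is near the background. Each number holds 1 tagmentation and 1 sonication library, and the F test sets the differences between numbers against what is left between those libraries. As in the fit with the block, what is left was nearly all a spread shared across genes. The very small p-values given below for single genes thus do not rest on the values of that gene alone. If a number marks 1 amplified cDNA, there is then 1 amplification per number, and these p-values do not measure the spread between repeated amplifications. Without the tagmentation library of number 2 it called 21 of the mitosis genes and 4193 genes in all, against 5577 with every library. The number accounted for 93.2% of the sum of squares of the mitosis genes and the method for 2.75%, against 94.3% and 2.84% over all tested genes. A range of 4-fold or more between numbers with a call was found for 16 of the 39 (41.0%) and for 58.5% of all genes. Of those 16, 13 were highest in number 1 (81.3%), as were 44.1% of the 4-fold genes at large. Over all 39, 23 were highest in number 1 (59.0%), 9 in number 2 (23.1%) and 7 in number 3 (17.9%), against 39.7%, 38.2% and 22.1% of all tested genes. The labels do not say whether equal numbers mark the same amplified cDNA, but within a number the levels of the 39 genes correlated at r = 0.958 to 0.984 between the methods, whereas between numbers of 1 method r was 0.422 to 0.852 for tagmentation and 0.613 to 0.872 for sonication. These correlations run across genes, which are not independent replicates.

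In the cyclin-CDK group all 6 genes were highest in number 1 by the mean log2 level of both methods, as were 39.7% of all tested genes. For Cks1b the margin passed no test. Of the 6, 5 were called between numbers, near the background of 88.1% of all tested genes. Cks1b, the small subunit that docks CDKs to substrates, was the most abundant, at 365, 364 and 455 RPKM in tagmentation libraries 1 to 3 against 368, 263 and 284 RPKM in the sonication libraries. Its numbers differed least of all the mitosis genes, by 0.24 on the log2 scale (adjusted p = 0.779, limma F test). Its close relative Cks2 had 129, 44.8 and 45.3 RPKM after tagmentation and 102, 25.8 and 18.6 RPKM after sonication. Cks2 was thus higher after tagmentation in each of the 3 numbers, with a mean difference of 0.79 ± 0.30 (SE) and an adjusted p of 0.122 in limma with the block, while its method ranges overlapped. Ccnb1, the cyclin B that is destroyed at anaphase, had 92.9, 12.8 and 2.68 RPKM after tagmentation and 103, 15.6 and 7.10 RPKM after sonication. Number 1 held the most Ccnb1 by both methods, 34.7-fold above number 3 after tagmentation and 14.5-fold after sonication, and tagmentation was lower in all 3 numbers (-0.52 ± 0.29, adjusted p = 0.371 in limma with the block). Ccnb2, the other B-type cyclin measured, varied less, at 170, 158 and 107 RPKM after tagmentation and 186, 120 and 62.2 RPKM after sonication. Cdk1 itself had 81.7, 24.4 and 27.2 RPKM after tagmentation and 71.6, 20.0 and 14.4 RPKM after sonication, so the kinase, like Cks2, was highest in number 1 by both methods. Ccna2, cyclin A, had the lowest mean of the group over the 6 libraries and ranged from 5.32 to 19.0 RPKM after tagmentation and from 9.99 to 14.1 RPKM after sonication.

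Both listed genes of the anaphase-promoting step were highest in number 3, as were 22.1% of all tested genes. The cyclins were highest in number 1 by the mean log2 level of both methods. Of 16 other tested genes of the anaphase-promoting complex and its partners, 8 were highest in number 1, 3 in number 2 and 5 in number 3. Cdc20, the activator that brings substrates to the complex and the target of the checkpoint, had 56.7, 162 and 193 RPKM after tagmentation and 95.0, 186 and 194 RPKM after sonication. Number 1 was the lowest library of Cdc20 by both methods, and the numbers differed by 1.38 on the log2 scale (adjusted p = 0.000353, limma F test). Tagmentation was lower in all 3 pairs, by -0.74, -0.20 and -0.01, a mean of -0.31 ± 0.30 (adjusted p = 0.672, limma with the block). Ube2c, the ubiquitin-conjugating enzyme that works with the complex, had 195, 286 and 502 RPKM after tagmentation and 230, 203 and 303 RPKM after sonication. It was the most abundant mitosis gene in number 3 by both methods, yet its numbers missed the threshold (adjusted p = 0.0514, limma F test).

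The 5 checkpoint genes did not move together. Bub1, a kinase that recruits checkpoint proteins to kinetochores, had 59.0, 0.287 and 0.133 RPKM after tagmentation and 35.3, 1.12 and 1.5 RPKM after sonication. It was thus abundant in number 1 and at 1.5 RPKM or less in numbers 2 and 3 by both methods, with a range of 4.82 between numbers (adjusted p = 4.31e-35, limma F test). Tagmentation was higher than sonication for Bub1 in number 1, by 0.73, and lower in numbers 2 and 3, by -0.72 and -1.14. Bub3, a WD-repeat partner of BUB1 and of BubR1 in the same checkpoint, had 89.9, 83.9 and 110 RPKM after tagmentation and 105, 79.7 and 72.1 RPKM after sonication, a range of 0.25 between numbers (adjusted p = 0.803, limma F test). Bub1b, which encodes BubR1, was highest in number 2, at 27.1, 61.9 and 28.3 RPKM after tagmentation and 28.5, 41.0 and 14.9 RPKM after sonication. Mad2l1, the MAD2 protein that binds CDC20, had 104, 48.1 and 3.19 RPKM after tagmentation and 71.6, 26.7 and 3.75 RPKM after sonication, lowest in number 3 by both methods. Ttk, the kinase MPS1, had 5.44, 0.112 and 9.09 RPKM after tagmentation and 3.58, 1.63 and 2.89 RPKM after sonication. The tagmentation value of Ttk varied 81.1-fold between numbers and its sonication value 2.20-fold. That tagmentation fold rests on the low value of 0.112 RPKM in number 2.

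Aurka and Plk1 were also highest in number 3. Aurka, which works at the spindle poles, had 47.6, 45.1 and 110 RPKM after tagmentation and 47.7, 29.0 and 66.8 RPKM after sonication. Plk1, polo-like kinase, had 4.0, 33.0 and 50.2 RPKM after tagmentation and 6.29, 33.3 and 46.4 RPKM after sonication. In Plk1, number 1 was the lowest library by both methods and the methods nearly coincided in numbers 2 and 3. In the chromosomal passenger complex, which corrects faulty attachments, Birc5 (survivin) was the most abundant gene, at 238, 134 and 88.6 RPKM after tagmentation and 247, 105 and 67.0 RPKM after sonication. Cdca8 (borealin) had 135, 113 and 25.9 RPKM after tagmentation and 206, 105 and 19.7 RPKM after sonication, and Incenp, the scaffold, ranged from 2.77 to 13.2 RPKM after tagmentation and from 2.61 to 17.4 RPKM after sonication. These 3 subunits shared the order number 1 above number 2 above number 3. Aurkb, the kinase of the complex, was highest in number 2, at 61.2, 122 and 78.4 RPKM after tagmentation and 61.6, 86.5 and 45.6 RPKM after sonication, and was not called between numbers (adjusted p = 0.0677, limma F test).

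At the kinetochore, the 4 subunits of the NDC80 complex, which grips microtubules as a unit, had unlike levels. Ndc80 had 17.6, 43.2 and 25.1 RPKM after tagmentation and 12.9, 22.8 and 9.52 RPKM after sonication. It had the largest positive difference between the methods among the 39 genes, 0.87 ± 0.29 (SE), higher after tagmentation in 3 of 3 pairs, and missed the threshold with the block (adjusted p = 0.0724, limma). Its partner Nuf2 had 4.14, 0.733 and 0.384 RPKM after tagmentation and 4.31, 1.63 and 1.65 RPKM after sonication. Nuf2 was lower after tagmentation in 3 of 3 pairs (-0.53 ± 0.27, adjusted p = 0.312, limma with the block). Spc24 had 19.7, 151 and 48.9 RPKM after tagmentation and 36.8, 154 and 51.1 RPKM after sonication, whereas its direct partner Spc25 had 83.8, 15.6 and 2.58 RPKM after tagmentation and 54.4, 14.4 and 6.96 RPKM after sonication. Spc24 was thus lowest and Spc25 highest in number 1, by both methods. Cenpa, the centromeric histone H3 variant, had 81.6, 137 and 90.8 RPKM after tagmentation and 97.3, 123 and 58.6 RPKM after sonication, without a call between numbers (adjusted p = 0.0840, limma F test). Cenpe, a kinetochore motor, had 5.02, 11.0 and 2.93 RPKM after tagmentation and 3.64, 6.60 and 1.27 RPKM after sonication, higher after tagmentation in 3 of 3 pairs (0.61 ± 0.28, adjusted p = 0.242, limma with the block). In all, 6 of the 39 genes were higher after tagmentation in 3 of 3 pairs, where 19.6% of all tested genes were, and 4 were lower in 3 of 3, where 15.4% were.

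In the condensin group 3 of 4 genes were highest in number 1, as were 39.7% of all tested genes. Smc4, a core ATPase of condensin, had 98.8, 0.262 and 1.31 RPKM after tagmentation and 53.7, 1.87 and 7.29 RPKM after sonication. Its partner Smc2 had 14.5, 0.152 and 0.325 RPKM after tagmentation and 8.34, 1.08 and 1.65 RPKM after sonication. Both ATPases were high in number 1 and low in numbers 2 and 3, and in both tagmentation was higher in number 1 and lower in the other numbers. Whole reads could be worked back from the RPKM steps for 31 of the 40 genes, and Smc4 had 37 reads in tagmentation library 2 against 168 in sonication library 2, although the tagmentation library was the deeper. Ncapd2, a condensin I subunit, kept 42.1, 63.3 and 45.6 RPKM after tagmentation and 64.9, 62.4 and 33.7 RPKM after sonication, with no call between numbers (adjusted p = 0.198, limma F test). Top2a, the topoisomerase that untangles sister chromatids, had 57.3, 11.5 and 13.1 RPKM after tagmentation and 56.5, 12.8 and 11.1 RPKM after sonication, and the methods lay close together in each number.

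Among spindle motors and assembly factors the widest range of all belonged to Nusap1, a microtubule-binding protein of the spindle. It had 116, 0.536 and 0.150 RPKM after tagmentation and 85.2, 1.23 and 1.09 RPKM after sonication. Number 1 stood 215-fold above number 2 and 768-fold above number 3 after tagmentation, and 69.2-fold and 78.3-fold after sonication. The tagmentation folds divide by values under 1 RPKM, and reads of Nusap1 could not be worked back. The test was of log2(RPKM + 1), where the range between numbers was 6.02 (adjusted p = 3.39e-45, limma F test). Kif11, the motor that pushes spindle poles apart, had 25.7, 0.600 and 7.31 RPKM after tagmentation and 14.5, 0.613 and 4.06 RPKM after sonication, lowest in number 2 by both methods. Kif22, a chromokinesin, had 71.9, 63.6 and 146 RPKM after tagmentation and 92.6, 47.2 and 90.7 RPKM after sonication, and had the highest mean of this group over the 6 libraries, although Nusap1 was higher in tagmentation library 1. Kif2c, a microtubule depolymerase, had 10.7, 44.8 and 11.1 RPKM after tagmentation and 10.9, 38.1 and 8.66 RPKM after sonication, with the peak in number 2 by both methods. Tpx2, which activates Aurora A, ranged from 16.2 to 31.9 RPKM after tagmentation and from 10.4 to 29.8 RPKM after sonication. Hmmr, a spindle assembly factor, was likewise highest in number 1, at 10.9, 0.657 and 0.221 RPKM after tagmentation and 8.67, 1.45 and 0.732 RPKM after sonication.

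The genes of the central spindle and cytokinesis spanned the extremes too. Kif20a, a motor of the central spindle, had 1.97, 48.3 and 4.06 RPKM after tagmentation and 3.28, 38.6 and 3.04 RPKM after sonication. Number 2 thus stood 24.5-fold above number 1 after tagmentation and 11.8-fold after sonication. Prc1, which bundles the antiparallel microtubules on which that motor walks, had 9.36, 0.00960 and 0.0575 RPKM after tagmentation and 11.8, 0.242 and 0.581 RPKM after sonication. In numbers 2 and 3 the Prc1 values stood for 1 and 6 reads after tagmentation and 16 and 33 reads after sonication, so its folds rest on few reads, which carry no molecular identifiers. Kif23, a subunit of centralspindlin, had 18.6, 15.4 and 12.5 RPKM after tagmentation and 14.8, 10.3 and 8.29 RPKM after sonication, higher after tagmentation in 3 of 3 pairs and not called between numbers (adjusted p = 0.199, limma F test). Anln, the scaffold anillin, had 21.3, 2.31 and 0.197 RPKM after tagmentation and 15.8, 3.65 and 1.06 RPKM after sonication, highest in number 1 by both methods. Ect2, the exchange factor that activates RhoA at the division site, was lowest in number 1, at 2.37, 11.7 and 16.5 RPKM after tagmentation and 2.60, 7.45 and 7.74 RPKM after sonication.

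The 7 genes that were not called between numbers were Cks1b, Ube2c, Bub3, Aurkb, Cenpa, Ncapd2 and Kif23, so that every role but the pair of Aurka and Plk1 and the spindle motors held 1 such gene. Some partners in 1 complex had unlike patterns by both methods, as Bub1 and Bub3 or Spc24 and Spc25, and others were alike, as Smc2 and Smc4 or Birc5, Cdca8 and Incenp; these pairs were picked after their values were seen and not tested. Across the 39 genes, the range between numbers had a Spearman rho of -0.46 with the GC content of the gene and of -0.36 with mean RPKM, against -0.043 and -0.18 over all tested genes. The mitosis genes had a median GC content of 46.7%, against 51.5% for all tested genes with a value. Both rhos describe genes that share the same 6 libraries.

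**Figure D2:**
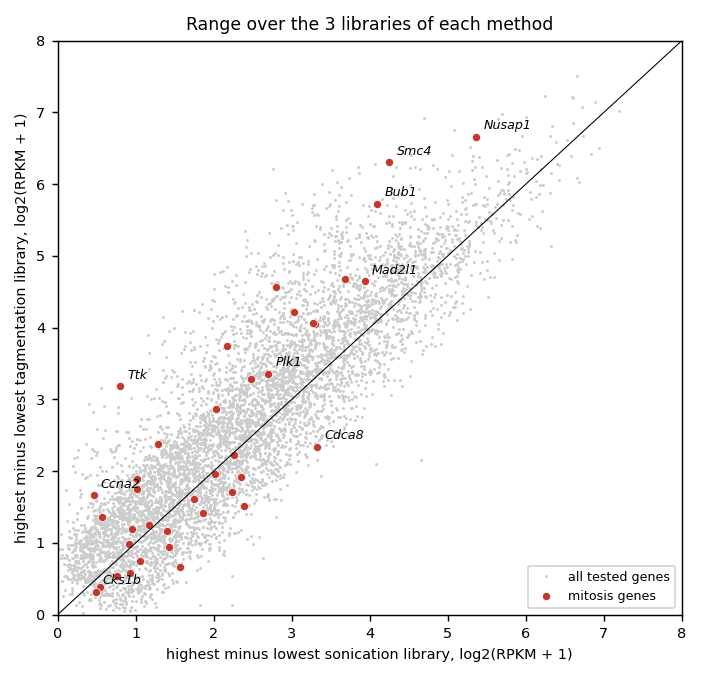
Highest minus lowest library of each gene on the log2(RPKM + 1) scale, within tagmentation (vertical) and within sonication (horizontal), for 39 mitosis genes (red) over all tested genes (grey), with the line of equality. Nusap1, Smc4 and Bub1 lie far up on both axes, Cks1b lies near the origin, and Ttk had a wide range after tagmentation alone.

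The range between libraries was wider after tagmentation than after sonication for 23 of the 39 mitosis genes (59.0%), below the 65.9% of all tested genes. The median SD of the 39 genes on the log2 scale was 0.97 after tagmentation and 0.95 after sonication, against 1.32 and 1.17 over all tested genes. Without library 1 of each method the medians of the 39 genes were 0.49 after tagmentation and 0.62 after sonication. In numbers 2 and 3, which method was higher went with the level of the gene. Prc1, which was not tested, is counted among the mitosis genes in these counts by level. Of the mitosis genes whose 2 values in number 2 averaged under 5 RPKM, tagmentation was lower in 10 of 10, and in number 3 it was lower in 11 of 14, the exceptions being Incenp, Cenpe and Kif20a. Among all tested genes of that level, tagmentation was lower in 1224 and higher in 764 of 2021 in number 2, and lower in 1397 and higher in 1154 of 2576 in number 3. From 5 to 50 RPKM the direction was the other way: tagmentation was higher for 12 of 17 mitosis genes in number 2 and for 15 of 15 in number 3, against 70.6% and 79.4% of all tested genes. At 50 RPKM or more it was higher for 11 of 13 and 9 of 11, against 64.2% and 79.8%. In number 1 it was higher for 2 of 5, 9 of 16 and 7 of 19 mitosis genes at these 3 levels, against 32.6%, 42.5% and 37.8% of all tested genes. The tagmentation libraries had more alignments than the sonication libraries in numbers 2 and 3 and fewer in number 1; the part of depth was not tested.

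**Figure D3:**
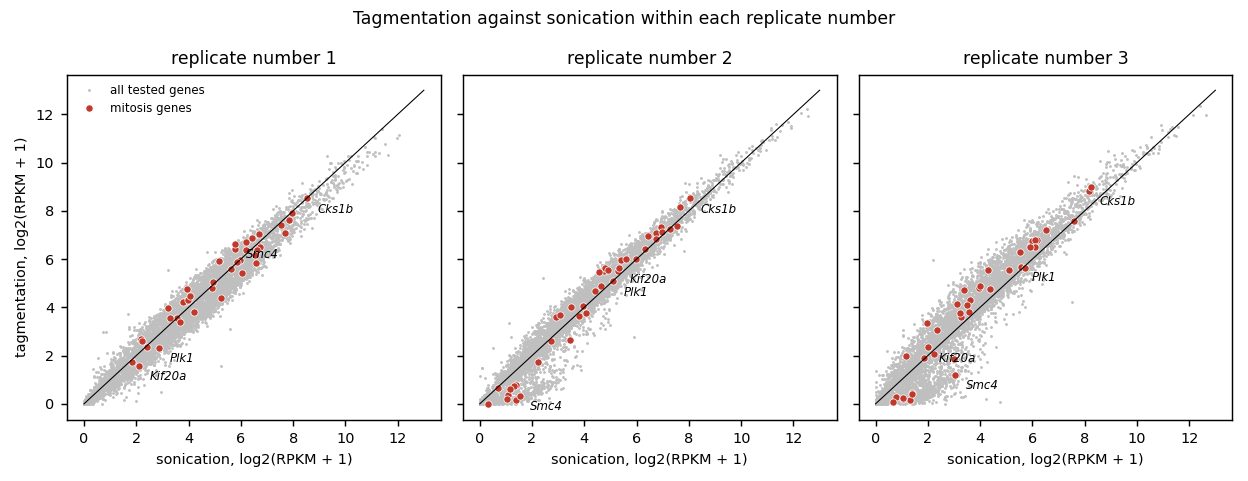
Level after tagmentation (vertical) against level after sonication (horizontal) within each replicate number, log2(RPKM + 1). The 40 mitosis genes (red), Prc1 included, lie over all tested genes (grey), with the line of equality. In numbers 2 and 3 most mitosis genes at the low end lie under the line, among them Smc4 (in number 3, 11 of 14 under 5 RPKM), and most of those at higher levels lie on or above it.

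The difference in how many genes reached 1 RPKM lay in genes at the low end, all of them listed above 0. At 0.1 RPKM, 39.3 genes passed on average after tagmentation and 40 after sonication. In number 2, Kif11 and Prc1 were under 1 RPKM by both methods, and Bub1, Ttk, Nuf2, Smc2, Smc4, Hmmr and Nusap1 were under it after tagmentation alone. In number 3, Hmmr and Prc1 were under 1 RPKM by both methods, and Bub1, Nuf2, Smc2, Nusap1 and Anln after tagmentation alone. In neither number was any of the 40 genes under 1 RPKM after sonication alone. Of all tested genes, 6.32% were under 1 RPKM after tagmentation alone and 1.26% after sonication alone in number 2, and 9.69% and 2.51% in number 3. The 7 genes of number 2 read 0.112 to 0.733 RPKM after tagmentation and 1.08 to 1.87 RPKM after sonication, a median of 1.05% of their number 1 level after tagmentation and 12.9% after sonication. The 5 genes of number 3 read 0.133 to 0.384 RPKM after tagmentation and 1.06 to 1.65 RPKM after sonication, a median of 0.924% of their number 1 level after tagmentation and 6.70% after sonication. These genes were chosen by the tagmentation value itself, so their gap is a description.

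The median method difference was unlike in the 3 numbers, and that difference was not tested. The median difference of the 39 genes was -0.010 in number 1, 0.12 in number 2 and 0.43 in number 3, with 18, 23 and 27 genes higher after tagmentation. Over all tested genes the medians were -0.072, 0.079 and 0.20, with 2440, 3715 and 4137 of 6327 higher. When number 1 was left out, genes had to reach 1 RPKM in at least 3 of the remaining libraries. That filter dropped Bub1, Nuf2, Smc2, Hmmr, Nusap1 and Kif11, of which all but Kif11 were lower after tagmentation in both numbers. A gene under 1 RPKM in both tagmentation libraries could not pass, so the split by direction is not that of all 39 genes. In this fit limma with the block called 13 of 33 mitosis genes, against 1153 of 4905 genes (23.5%). It had 1 residual degree of freedom per gene and a spread shared across genes. Higher after tagmentation were 11 genes: Ndc80 (1.10), Cks2 (1.01), Ect2 (0.80), Bub1b (0.73), Cenpe (0.73), Aurka (0.66), Aurkb (0.63), Ube2c (0.61), Ccnb2 (0.59), Cks1b (0.57) and Kif22 (0.55). Smc4 (-1.52, adjusted p = 0.000496) and Ccnb1 (-0.70, adjusted p = 0.0407) were lower. Of all genes called in that fit, 930 were higher and 223 lower, and the median difference was 0.34 for the mitosis genes and 0.21 for all. With all 3 numbers none of these 13 was called.

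**Figure D4:**
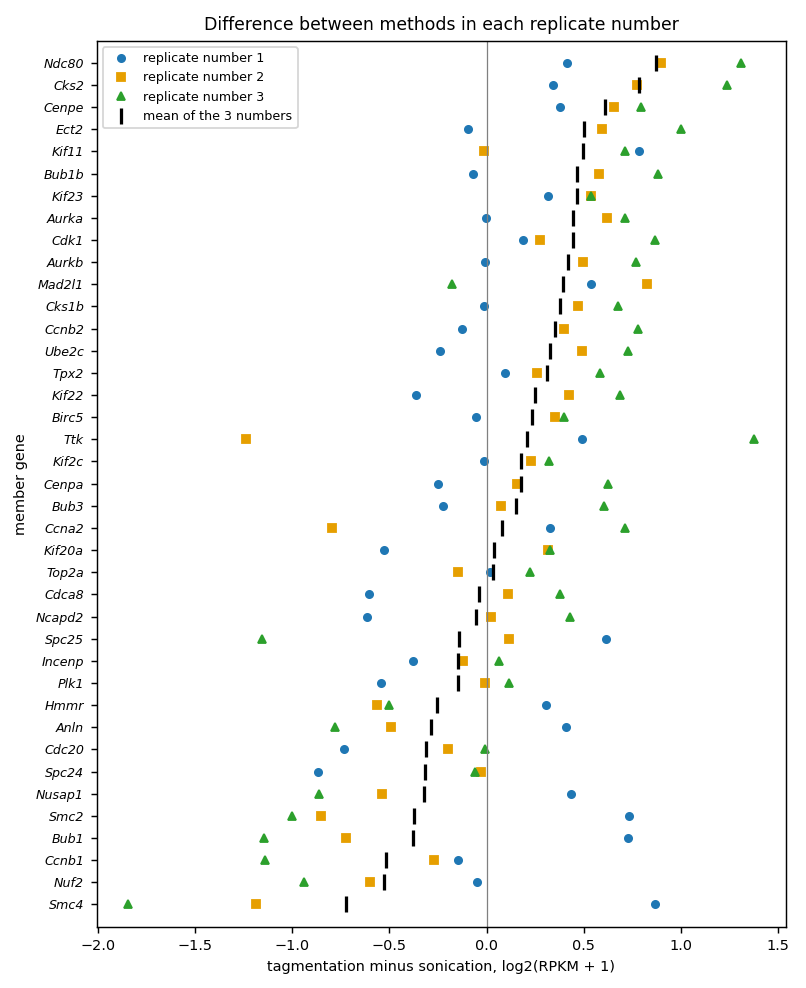
Tagmentation minus sonication on the log2(RPKM + 1) scale for each of 39 mitosis genes (rows, ordered by their mean) in replicate numbers 1 (circles), 2 (squares) and 3 (triangles), with the mean as a bar. Ndc80, Cks2 and Cenpe lie right of 0 in all 3 numbers, while Smc4 and Bub1 lie right of 0 in number 1 and left of it in numbers 2 and 3.

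A further list of 101 mitosis genes, of which 97 had a row and 67 were tested, gave 0 calls between the methods in limma without the block and 1 with it. That gene was Cenpl, a centromere protein of the CENP-A-associated network, with 21.3, 0.167 and 0.227 RPKM after tagmentation and 16.6, 2.06 and 8.53 RPKM after sonication (-1.33 ± 0.30, adjusted p = 0.00202 in limma with the block, lower in 2 of 3 pairs). No other setting with the block that kept Cenpl called it: its adjusted p was 0.0915 to 0.999 in 8 of them (limma), 0.336 after the GC correction and 0.698 with no filter. Cenpl shares with Bub1 and Smc4 a high number 1 and low tagmentation values in numbers 2 and 3. The median difference of the 67 was 0.11 on the log2 scale. Between numbers 62 of the 67 were called, where 88.1% of all tested genes were. Calls with a range of 4-fold or more came to 40 of the 67 (59.7%), near the 58.5% of all tested genes. The most abundant of each of its sublists were Anapc13 of the anaphase-promoting complex, the kinetochore gene Pmf1, the condensin subunit Ncaph, the augmin subunit Haus1 and cyclin F, Ccnf. Of 78 of them with a RefSeq promoter, 33.3% held both CCAAT and TTTGAA or TTTAAA.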

How the data were processed

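Per the labels' protocols, amplified cDNA from E14tg2a total RNA was made into 3 tagmentation and 3 sonication libraries. RPKM values were made and deposited by the authors, 1 column per library, with the alignment total of each library per the file headers. The submitters' processing notes name mm9, CASAVA 1.7.0 and Partek; which gene models were used, whether strand was, and how reads that match several places were treated is not given, so genes with near-identical copies or antisense partners are uncertain. The genes and the lists were chosen with earlier results of these data known.

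Genes that reached 1 RPKM in 3 or more of the 6 libraries were tested as log2(RPKM + 1), which understates changes of low genes, with limma 3.58.1 in R 4.3.3 (two-sided, trend, Benjamini-Hochberg adjustment over all 6327 genes, threshold 0.05). Deviations from the method means correlated at 0.934 to 0.969 between libraries of the same number and -0.628 to -0.175 between others, partly fixed by the centring, so the numbers were taken as pairs; the labels do not state this. Other alternatives were pseudocounts, filters, scalings, a GC correction and leaving out libraries. Whole reads (within 0.001 reads, plus rounding of the deposited digits) were worked back for 73.5% of 9452 genes, against 0.0212% with the totals moved by 1 library. Without molecular identifiers, PCR copies cannot be told from separate molecules, so read numbers cover counting error only. Values for all 6 libraries were given for genes named by a rule: those called, the 3 highest and 3 lowest differences, the 3 most abundant, the 3 widest and 3 narrowest ranges between numbers and the most abundant of each role; values of the other genes were added to account for every gene. Fits were tested on simulated data.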

Additional observations from a re-analysis of the deposited data

How the results depend on the processing

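Taking the replicate numbers as pairs in the replicate block moved the genes called between the methods to 208, left the mitosis genes called at 0, moved the further list of mitosis genes to 1 (Cenpl) and changed no other call reported here. With the block, the genes called came to 8 at a pseudocount of 0.1, 168 at a pseudocount of 5 and also with a mean of at least 10 RPKM, 64 with median-ratio scaling, 261 with quantile normalization, and 0 with no filter and 0 with a GC correction. Under quantile normalization, 1 mitosis gene was called, Cks2 (adjusted p = 0.04997, limma). Leaving out a replicate number gave 1 gene (without number 2), 7 (without number 3) and 1153 (without number 1), and 0 to 13 mitosis genes with the block. The median difference of the mitosis genes was 0.025 to 0.22 under the other settings and -0.12 to 0.51 when single libraries were left out without the block. With the block and a replicate number left out it was -0.019 to 0.34. The mitosis genes called between numbers were 21 to 35 when libraries were left out, and all genes called between numbers were 3411 of those with a mean of at least 10 RPKM, where fewer were tested. At 10 RPKM, 28.3 mitosis genes passed on average after tagmentation and 26.0 after sonication, and at 0.1 RPKM 39.3 and 40 passed.

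Of the 19 genes named by the rule, 12 changed sign somewhere, in 40 of 430 values, none of them called. At a pseudocount of 5, Nusap1 was 0.0018 and Bub1 0.039, with or without the block. Bub3 was -0.0033 with quantile normalization in both fits, and with the block and a GC correction Bub3 was -0.030 and Kif20a -0.15. Without single libraries and without the block, values ran from -2.68 to 0.47 for Smc4, -1.76 to 0.58 for Ccnb1, -0.035 to 0.65 for Ube2c, -0.65 to 0.23 for Cdc20, -2.47 to 1.45 for Nusap1 and -2.26 to 0.95 for Bub1. They ran from -0.18 to 0.75 for Birc5, -0.12 to 0.41 for Cenpa, -0.35 to 0.11 for Ncapd2, -0.12 to 0.48 for Kif22 and -1.18 to 1.12 for Kif20a. With the block and a number left out they ran from -0.21 to 0.0027 for Bub1, -0.076 to 0.34 for Bub3, -0.048 to 0.39 for Cenpa, -0.30 to 0.22 for Ncapd2 and -0.10 to 0.32 for Kif20a. The causes were not tested. Where a left-out library leaves 2 in a method, the spread is shared across genes, as it is in the fits with the block. The spread within a method was 0.81 after tagmentation and 0.68 after sonication at a pseudocount of 5. Values of few reads, such as Prc1 with 1 read in tagmentation library 2, carry a large counting error.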
